A study of Mus musculus with 20 samples.

Results

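The genotype by tunicamycin interaction asked, for every gene, whether the liver of mice without the repressor NFIL3 changed with endoplasmic reticulum stress (ERS) by another amount than the liver of wild-type (WT) mice. It was the response of NFIL3 KO livers (tunicamycin minus vehicle) minus the response of WT livers (tunicamycin minus vehicle), so that a positive value means a larger rise or a smaller fall in NFIL3 KO livers. All 20 of the 20 arrays entered, and the interaction was described across 22180 genes. Each array, of the Affymetrix MoGene 2.0 ST type, held liver RNA of 1 adult male mouse of C57Bl6 background (C57BL/6J in the study's methods), with 5 NFIL3 KO mice given tunicamycin, 5 NFIL3 KO mice given vehicle, 5 WT mice given tunicamycin and 5 WT mice given vehicle. NFIL3 KO mice were Nfil3-/-, and the study's methods name WT littermates as their controls. Tunicamycin was injected at 1 µg per g of body weight, vehicle was 150 mM dextrose, and livers were taken after 8 h. Levels are log2 signal intensities, differences are log2 differences with the standard error (SE) of the limma fit, and a gene was called when its Benjamini-Hochberg adjusted p, taken over all genes, was below 0.05.

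Tunicamycin blocks the first step of N-linked glycosylation, so that glycoproteins misfold in the endoplasmic reticulum (ER). The sensors IRE1, PERK and ATF6 then set off the unfolded protein response, which raises chaperones, ER-associated degradation and, through ATF4 and CHOP, a broader stress programme, while many metabolic and secretory genes of the hepatocyte fall. NFIL3, also called E4BP4, represses genes through the D-box, the DNA element that the related PAR-bZIP activators HLF, TEF and DBP use to raise them, and it is itself induced by stress.

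The interaction was called for 2 of 22180 genes (0.00902%), both with positive values. They were Auh, which encodes an enoyl-CoA hydratase of mitochondrial leucine breakdown that also binds AU-rich RNA, and Adra1b, which encodes the alpha-1B adrenergic receptor through which catecholamines act on hepatocytes. By contrast, 6029 genes (27.2%) were called for tunicamycin in NFIL3 KO livers and 6077 genes (27.4%) in WT livers. At an unadjusted p below 0.05 the interaction held 487 genes with positive and 532 with negative values, together 4.59% of all genes. The interaction of a gene had a median SE of 0.18 and a 95% interval that reached 0.36 to either side in the median. For a typical gene taken alone, a difference between genotypes smaller than this could not be told from none. A call, adjusted over all 22180 genes, needed a larger difference, and Dkc1 with an interaction of 0.83 was not called. The small number of calls thus does not show that differences above 0.36 were absent.

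Auh had levels of 8.20, 8.31, 7.57, 8.34 and 8.38 in NFIL3 KO livers with tunicamycin and 7.11, 7.0, 7.04, 7.18 and 7.08 in NFIL3 KO livers with vehicle. In WT livers it had 6.05, 6.42, 5.95, 5.68 and 5.75 with tunicamycin and 6.59, 6.39, 6.51, 6.40 and 6.36 with vehicle. All 5 arrays of the NFIL3 KO tunicamycin group thus lay above every other array. Auh rose 2.11-fold in NFIL3 KO livers (1.08 ± 0.14, adjusted p = 1.81e-06, limma) and fell 1.4-fold in WT livers (-0.48 ± 0.14, adjusted p = 0.0106), which makes an interaction of 1.56 ± 0.20 (95% interval 1.15 to 1.97, adjusted p = 0.00167). It was the only ranked gene, of 24 named below, that moved in opposite called directions. The genotypes differed by 2.19 with tunicamycin (adjusted p = 4.85e-09) and by 0.63 with vehicle, where the arrays of the genotypes did not overlap but the gene was not called (adjusted p = 0.207).

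Adra1b had levels of 7.85, 8.15, 7.64, 8.14 and 7.99 in NFIL3 KO livers with tunicamycin, near the 8.16, 8.02, 8.47, 8.19 and 7.87 of NFIL3 KO livers with vehicle. In WT livers it had 6.81, 6.90, 6.68, 6.99 and 6.76 with tunicamycin, below the 8.02, 7.91, 8.15, 8.26 and 8.06 with vehicle. The WT tunicamycin group stood alone at the bottom, and the other groups overlapped. The response was -0.19 ± 0.12 in NFIL3 KO livers (adjusted p = 0.276) and a 2.38-fold fall in WT livers (-1.25 ± 0.12, adjusted p = 1.16e-08), with an interaction of 1.06 ± 0.16 (0.72 to 1.40, adjusted p = 0.0171). The genotypes differed by 1.13 with tunicamycin (adjusted p = 1.13e-05) and by 0.06 with vehicle (adjusted p = 0.995). When probesets were tested without averaging to genes, 1 of 41345 was called (0.00242%), that of Auh (adjusted p = 0.011), and the probeset of Adra1b was not (adjusted p = 0.0754). Adra1b also lost its call, with adjusted p between 0.0515 and 0.0576, when NFIL3 KO tunicamycin replicate 2, 4 or 5, NFIL3 KO vehicle replicate 2, WT tunicamycin replicate 3 or 5, or WT vehicle replicate 3 or 4 was left out. With each of the 20 arrays left out in turn its adjusted p ran between 0.00341 and 0.0576, and Auh was called each time.

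**Figure D1:**
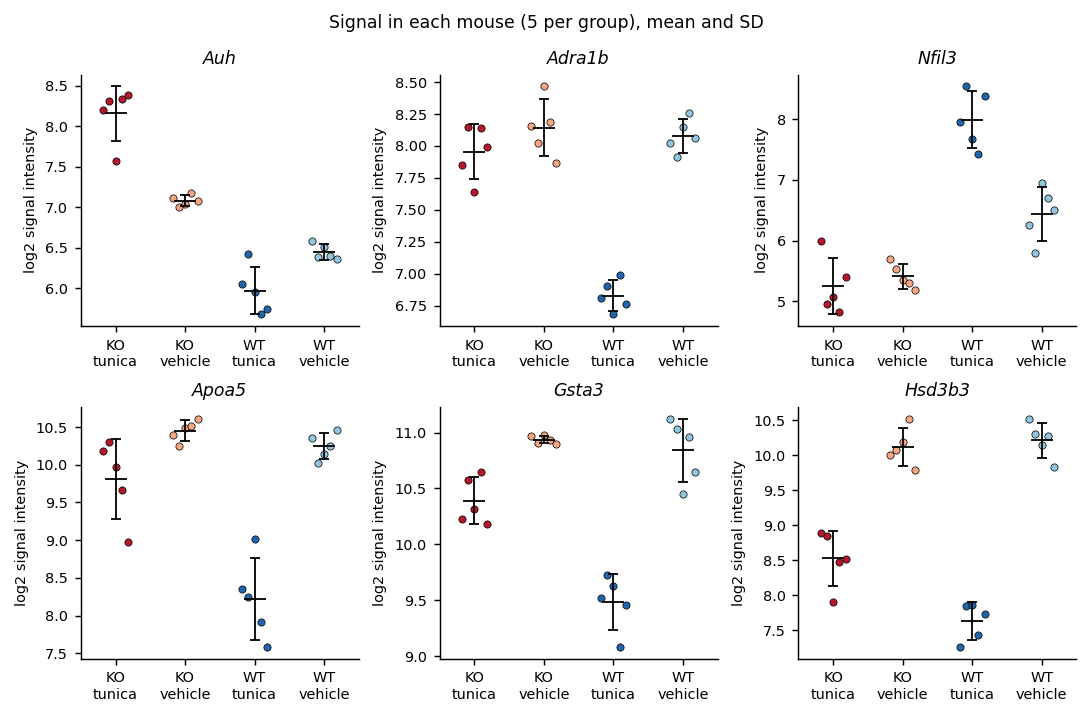
Log2 signal intensity of 6 genes in every mouse, for NFIL3 KO tunicamycin, NFIL3 KO vehicle, WT tunicamycin and WT vehicle (points are mice, bars the mean and SD of 5 mice, and each panel has its own axis). Auh was highest in all NFIL3 KO livers with tunicamycin, and for Adra1b the 5 WT livers with tunicamycin, between 6.68 and 6.99, lay apart from the other 15.

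The sequences before the transcription start of the called genes are shown with 3 for comparison, since NFIL3 acts through the D-box and ERS through its own element. Each is the 250 bases before the start in RefSeq (GRCm38.p6), 5′ to 3′ on the gene's strand, with capitals marking an ER stress element (CCAAT and CCACG with 9 bases between them) or a D-box (TTATGTAA or TTACGTAA) on either strand. Hspa5 and Derl3 both hold the stress element and had interactions of 0.05 ± 0.13 and -0.93 ± 0.31, neither called, and Ugt2b1 was the only gene taken by name that held a D-box.
Auh (chr13:52929678-52929927, minus strand): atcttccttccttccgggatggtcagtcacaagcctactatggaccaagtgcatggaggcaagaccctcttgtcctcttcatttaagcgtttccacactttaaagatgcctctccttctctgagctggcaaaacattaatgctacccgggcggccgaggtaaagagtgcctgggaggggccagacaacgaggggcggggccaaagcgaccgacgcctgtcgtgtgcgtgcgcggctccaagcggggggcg
Adra1b, start listed first (chr11:43901238-43901487, minus strand): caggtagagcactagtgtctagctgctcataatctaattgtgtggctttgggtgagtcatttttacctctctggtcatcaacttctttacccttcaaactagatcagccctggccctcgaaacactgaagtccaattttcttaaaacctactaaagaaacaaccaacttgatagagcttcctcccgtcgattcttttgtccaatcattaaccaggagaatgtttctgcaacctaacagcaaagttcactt
Adra1b, start listed next (chr11:43836490-43836739, minus strand): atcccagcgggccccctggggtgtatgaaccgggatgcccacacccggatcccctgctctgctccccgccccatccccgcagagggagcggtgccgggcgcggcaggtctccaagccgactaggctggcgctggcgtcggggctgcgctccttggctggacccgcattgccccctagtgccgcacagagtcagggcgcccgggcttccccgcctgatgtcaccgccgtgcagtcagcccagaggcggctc
Hspa5 (chr2:34771840-34772089, plus strand): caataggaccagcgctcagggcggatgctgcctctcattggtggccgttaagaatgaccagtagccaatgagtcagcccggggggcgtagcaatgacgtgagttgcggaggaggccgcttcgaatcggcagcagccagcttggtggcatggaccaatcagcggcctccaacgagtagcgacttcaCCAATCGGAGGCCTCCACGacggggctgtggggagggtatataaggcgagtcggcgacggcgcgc
Derl3 (chr10:75893148-75893397, plus strand): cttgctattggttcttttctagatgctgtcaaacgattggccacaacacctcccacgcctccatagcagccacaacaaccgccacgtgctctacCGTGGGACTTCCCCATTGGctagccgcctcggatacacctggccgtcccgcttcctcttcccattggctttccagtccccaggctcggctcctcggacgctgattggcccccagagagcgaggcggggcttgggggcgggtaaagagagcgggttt
Ugt2b1 (chr5:86926504-86926753, minus strand): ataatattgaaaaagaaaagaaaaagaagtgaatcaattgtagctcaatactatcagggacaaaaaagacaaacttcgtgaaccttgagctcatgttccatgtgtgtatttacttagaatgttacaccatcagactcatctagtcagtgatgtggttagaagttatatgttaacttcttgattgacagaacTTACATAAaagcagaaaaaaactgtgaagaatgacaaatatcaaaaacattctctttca

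Over windows of 250 bases before to 50 after the start, a D-box was present in 1.06% of 32851 promoters and an ER stress element in 0.119%. Promoters were found for 20 of the 24 ranked genes described below (28 promoters), and 0 of them held either motif. Among 25 matched genes of the 26 taken by name for their role, 1 held a D-box (Ugt2b1) and 4 held an ER stress element (Derl3, Hsp90b1, Hspa5 and Syvn1). A match or its absence in these windows is a description of the letters and says nothing of binding.

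Nfil3 itself ranked first among the negative interactions (unadjusted p = 2.95e-05, limma). Its level was 5.99, 4.95, 5.07, 4.83 and 5.40 in NFIL3 KO livers with tunicamycin and 5.70, 5.53, 5.35, 5.30 and 5.18 in NFIL3 KO livers with vehicle. It was 7.95, 8.55, 7.67, 7.42 and 8.38 in WT livers with tunicamycin and 6.25, 5.79, 6.95, 6.71 and 6.50 in WT livers with vehicle. It rose 2.94-fold in WT livers (1.55 ± 0.23, adjusted p = 1.21e-05), and its response in NFIL3 KO livers was -0.17 ± 0.23 (adjusted p = 0.691). The interaction was -1.72 ± 0.33 (-2.40 to -1.04) and was not called over all genes (adjusted p = 0.218), except without NFIL3 KO tunicamycin replicate 1 (-1.91, adjusted p = 0.0232). Whether its probes lie inside the deleted stretch is not given in the sources used here, so the signal left in NFIL3 KO livers is a level of the probeset and no measure of the transcript.

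Auh is a neighbour of Nfil3. On chromosome 13 it is the next protein-coding gene on one side of Nfil3 in the RefSeq order, with 1 annotated non-coding gene between them, and both lie on the same strand. Of the 20 annotated genes nearest to Nfil3, 10 on each side, 8 were measured, and the other 7 had interactions between -0.45 and 0.20, with adjusted p at 1.0. The largest in size were Gm2762 (-0.45 ± 0.16, unadjusted p = 0.0113, limma) and Sptlc1 (-0.27 ± 0.12, unadjusted p = 0.0358), where 4.59% of all genes had an unadjusted p below 0.05. Both passed the threshold only for a fall in NFIL3 KO livers (-0.44 and -0.28, adjusted p = 0.00476 and 0.0162), with WT responses of 0.008 and -0.008. The rest had an unadjusted p of 0.235 or more. Among them, Syk, which encodes a tyrosine kinase, had 0.20 ± 0.17 and Ror2, which encodes a receptor of Wnt signalling, had -0.002 ± 0.16. Position beside the deleted gene and the genotype cannot be told apart for Auh in these arrays.

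The 12 genes with the smallest p in each direction were named, leaving out predicted genes and genes whose 4 group means were all under 5.01, the median of all gene values. On the positive side these were the 2 called genes and 10 that were not called, with interactions between 0.51 and 1.56. Of the 12, 4 fell in both genotypes, less so in NFIL3 KO livers, 3 passed the threshold only for a fall in WT livers, 3 only for a rise in NFIL3 KO livers, Timm10 rose in both, and Auh moved in opposite directions. For 11 of the 12 the genotypes were further apart with tunicamycin than with vehicle, and 9 of the 12 were called between genotypes with tunicamycin (0.243% of all genes were) and 0 with vehicle (0.0225% of all genes). The genes were ranked on an interaction that shares arrays with both differences, so these counts describe how the interaction arose and are no separate evidence for it.

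Among genes of lipid and steroid metabolism, Apoa5, whose apolipoprotein lowers plasma triglycerides, had 10.18, 10.30, 9.97, 9.66 and 8.97 in NFIL3 KO livers with tunicamycin, against 8.35, 8.25, 9.02, 7.91 and 7.58 in WT livers with tunicamycin. With vehicle it lay between 10.25 and 10.61 in NFIL3 KO livers and between 10.02 and 10.46 in WT livers. It fell by 0.63 in NFIL3 KO livers (adjusted p = 0.0362) and by 2.02 in WT livers (adjusted p = 1.71e-07), with an interaction of 1.38 ± 0.31 (adjusted p = 0.494). Hsd3b3, which encodes a 3-beta-hydroxysteroid dehydrogenase, lay between 7.91 and 8.89 in NFIL3 KO livers with tunicamycin and between 7.26 and 7.87 in WT livers with tunicamycin. Its fall was 3-fold in NFIL3 KO livers and 5.98-fold in WT livers (interaction 0.99 ± 0.25, adjusted p = 0.61). In both genes every mouse with tunicamycin was below every mouse with vehicle in WT livers, and in NFIL3 KO livers this held for Hsd3b3 only.

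Marveld1, which encodes a membrane protein with a MARVEL domain, fell 1.67-fold in NFIL3 KO livers and 2.9-fold in WT livers (interaction 0.79 ± 0.18, adjusted p = 0.494). Gsta3, a glutathione S-transferase gene of xenobiotic conjugation, had 10.23, 10.58, 10.32, 10.65 and 10.18 in NFIL3 KO livers with tunicamycin, above the 9.52, 9.73, 9.63, 9.08 and 9.46 of WT livers with tunicamycin. With vehicle it had 10.97, 10.91, 10.98, 10.93 and 10.90 in NFIL3 KO livers and 11.12, 11.03, 10.45, 10.96 and 10.65 in WT livers. The genotypes overlapped with vehicle and not with tunicamycin, and the interaction was 0.81 ± 0.19 (0.42 to 1.20, adjusted p = 0.494).

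Zbtb16, which encodes the glucocorticoid-responsive zinc finger protein PLZF, rose in NFIL3 KO livers (0.87 ± 0.23, adjusted p = 0.00573) and had -0.46 ± 0.23 in WT livers (adjusted p = 0.16, interaction 1.33 ± 0.33). Dkc1, whose product dyskerin modifies ribosomal RNA and is part of telomerase, rose 2.17-fold in NFIL3 KO livers and had 0.29 ± 0.13 in WT livers (interaction 0.83 ± 0.18, adjusted p = 0.494). Dkc1 was at 7.20 in NFIL3 KO tunicamycin replicate 3 and between 7.83 and 7.98 in the other 4, and without that array its interaction was 0.97 and was called (adjusted p = 0.0102). Timm10, a chaperone gene of mitochondrial protein import, rose by 0.94 in NFIL3 KO livers and by 0.43 in WT livers. Zfp493, Lonrf3 and Polr3g, the last a subunit gene of RNA polymerase III, had interactions of 0.95, 1.20 and 0.70.

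**Figure D2:**
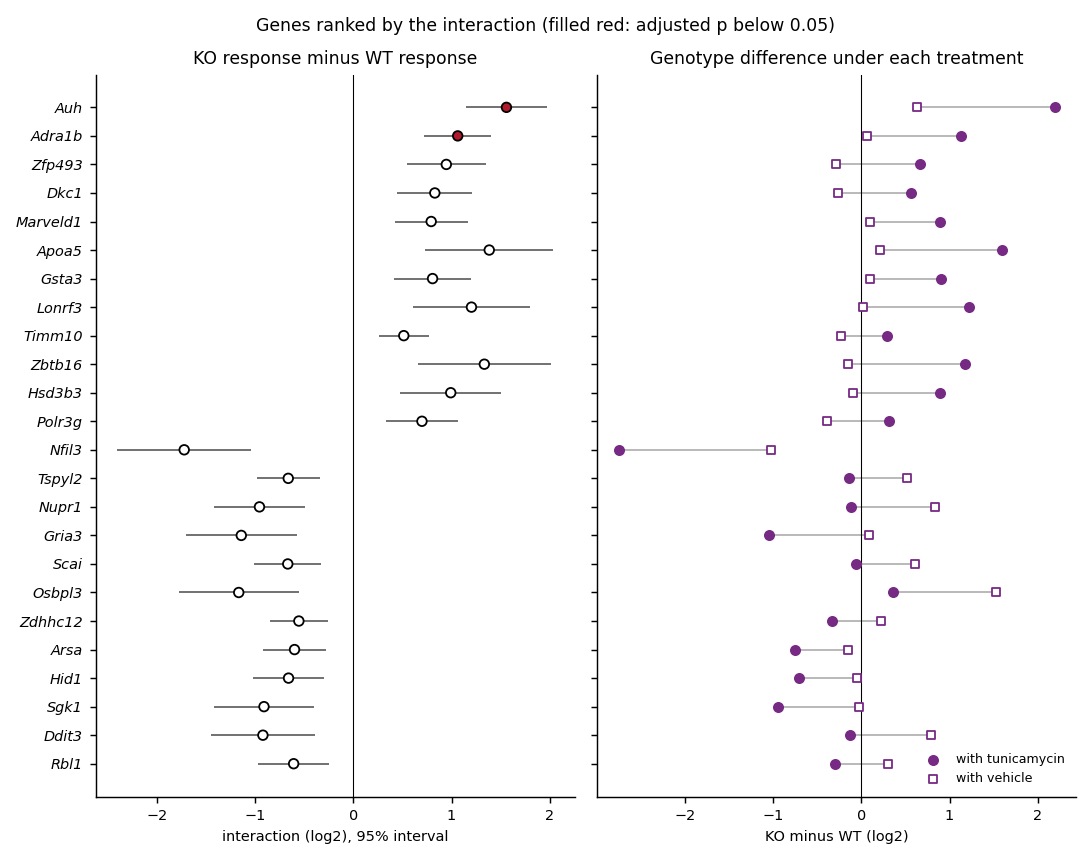
Left, the interaction of the 24 ranked genes as points with 95% intervals on the log2 scale, filled red where called. Right, the difference of NFIL3 KO from WT livers of the same genes with tunicamycin (filled circles) and with vehicle (open squares); the circles carry the wider differences in 11 of 12 genes of the upper part and in 6 of 12 of the lower part.

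On the negative side 0 genes were called, and the 12 ranked genes had interactions between -1.72 and -0.55, with adjusted p between 0.218 and 0.81. Of these, 8 rose in both genotypes, less so in NFIL3 KO livers, Scai fell in both, Osbpl3 and Arsa passed only for a fall in NFIL3 KO livers and Nfil3 only for a rise in WT livers. For 6 of the 12 the wider genotype difference was the one with vehicle. In those 6, namely Ddit3, Nupr1, Tspyl2, Scai, Osbpl3 and Rbl1, NFIL3 KO livers were higher than WT livers with vehicle by 0.31 to 1.52, and Osbpl3 alone was called there.

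Ddit3, the gene of the pro-apoptotic stress factor CHOP, had 11.38, 11.54, 10.84, 11.53 and 11.29 in NFIL3 KO livers with tunicamycin, against 11.39, 11.38, 11.48, 11.36 and 11.63 in WT livers with tunicamycin. With vehicle it had 7.54, 6.84, 6.73, 6.59 and 6.08 in NFIL3 KO livers, against 5.83, 6.05, 5.84, 6.21 and 5.93 in WT livers. The genotypes overlapped with tunicamycin, while 4 of 5 NFIL3 KO livers with vehicle lay above all 5 WT livers with vehicle. The rise was 23.6-fold in NFIL3 KO livers and 44.6-fold in WT livers, and the interaction was -0.92 ± 0.26 (-1.45 to -0.39, adjusted p = 0.81).

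Nupr1, which encodes a small stress-induced chromatin protein, lay between 10.14 and 10.36 in NFIL3 KO livers with tunicamycin and between 10.06 and 10.86 in WT livers with tunicamycin, where the groups overlapped. With vehicle it had 6.46, 6.11, 6.08, 5.44 and 6.16 in NFIL3 KO livers, all above the 4.91, 5.39, 5.34, 5.16 and 5.29 of WT livers. The genotype difference was -0.12 with tunicamycin (adjusted p = 0.865) and 0.83 with vehicle (adjusted p = 0.0872), and the interaction was -0.96 ± 0.22 (adjusted p = 0.494). Tspyl2, which encodes a protein of the nucleosome assembly family, had the same shape, with differences of -0.14 with tunicamycin and 0.52 with vehicle and an interaction of -0.66 ± 0.15.

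Osbpl3, an oxysterol-binding protein gene, had 4.54, 4.44, 5.52, 4.31 and 4.47 in NFIL3 KO livers with tunicamycin and 5.80, 5.65, 5.54, 6.34 and 6.48 in NFIL3 KO livers with vehicle. In WT livers it lay between 3.90 and 4.56 with tunicamycin and between 4.25 and 4.69 with vehicle, so that all 10 WT livers lay under 5.01, the median of all gene values, and the NFIL3 KO livers with vehicle and NFIL3 KO tunicamycin replicate 3 above it. The vehicle difference of 1.52 was called (adjusted p = 0.00311), and the interaction was -1.17 ± 0.30 (adjusted p = 0.665). Scai, which encodes a cofactor that restrains actin-driven transcription, was higher by 0.61 in NFIL3 KO livers with vehicle (adjusted p = 0.0872) and differed by -0.06 with tunicamycin.

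**Figure D3:**
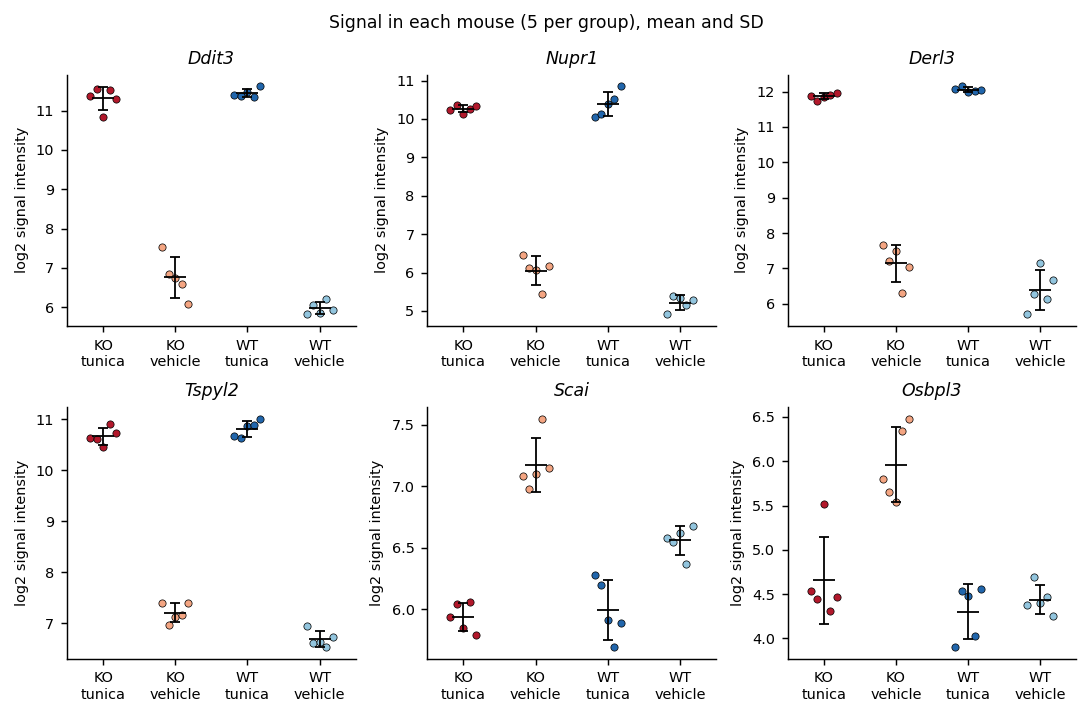
Log2 signal intensity of 6 genes with a negative interaction in every mouse, for NFIL3 KO tunicamycin, NFIL3 KO vehicle, WT tunicamycin and WT vehicle (points are mice, bars the mean and SD of 5 mice, and each panel has its own axis). For Ddit3, Nupr1, Derl3 and Tspyl2 the genotypes lay close together with tunicamycin, and the NFIL3 KO mean was higher with vehicle, by 0.79, 0.83, 0.75 and 0.52.

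The other negative genes were further apart with tunicamycin. Sgk1, a kinase gene induced by glucocorticoids and osmotic stress, had 6.21, 6.61, 6.47, 6.36 and 6.16 in NFIL3 KO livers with tunicamycin, below the 6.68, 7.11, 7.32, 7.56 and 7.84 of WT livers with tunicamycin, and differed by -0.03 with vehicle (interaction -0.91 ± 0.24). Gria3, which encodes a glutamate receptor subunit, rose 1.64-fold in NFIL3 KO livers and 3.62-fold in WT livers (-1.14 ± 0.27), and Hid1 rose 1.98-fold in NFIL3 KO livers and 3.12-fold in WT livers (-0.66 ± 0.17). Arsa, the lysosomal arylsulfatase A gene, fell by 0.59 in NFIL3 KO livers and had a WT response of 0.01. The palmitoyltransferase gene Zdhhc12 had 7.50 to 7.57 in NFIL3 KO livers with tunicamycin, just below the 7.73 to 8.02 of WT livers with tunicamycin.

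The 26 genes taken by name covered the NFIL3 family, the unfolded protein response, hepatic transcription factors and xenobiotic enzymes. For 20 of them the 95% interval of the interaction included 0, for Gsta3 and Nr1i2 it lay above 0, and for Nfil3, Ddit3, Derl3 and Syvn1 below 0, with 0 of 26 called. An interval clear of 0 equals an unadjusted p below 0.05 (limma), which 4.59% of all genes had. Nfil3 is the deleted gene and Gsta3 was singled out by the study from these arrays, so the count is no result about the 26 genes. In the PAR-bZIP family, Hlf fell 2.24-fold in NFIL3 KO livers and 2.47-fold in WT livers (interaction 0.14 ± 0.20, -0.28 to 0.56). Dbp fell 3.43-fold in NFIL3 KO livers and 2.62-fold in WT livers (-0.39 ± 0.33, -1.07 to 0.29, with -0.64 without NFIL3 KO tunicamycin replicate 3 and -0.18 without replicate 5 of that group), and Tef fell 1.44-fold and 1.6-fold in the same order (0.15 ± 0.13). All 3 relatives of NFIL3 fell in both genotypes, and the interval was widest for Dbp, whose levels in NFIL3 KO livers with tunicamycin spread between 7.07 and 8.91.

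Among the chaperone genes of the ER, Hspa5, which encodes the master ER chaperone BiP, had 11.81, 11.83, 12.00, 11.95 and 11.89 in NFIL3 KO livers with tunicamycin, against 11.90, 11.85, 11.83, 11.78 and 11.87 in WT livers with tunicamycin. It rose 4.44-fold in NFIL3 KO livers and 4.3-fold in WT livers, and the interval of the interaction reached from -0.23 to 0.33. Hsp90b1, which encodes GRP94, rose 2.33-fold in NFIL3 KO livers and 2.41-fold in WT livers, with an interval from -0.26 to 0.16. Of the sensors and their factors, Atf6 had an interaction of -0.06 ± 0.12, Atf4 -0.18 ± 0.16 and Xbp1 0.00 ± 0.15, while Atf3, an early stress factor, had -0.87 ± 0.45 and -0.46 without NFIL3 KO tunicamycin replicate 3, where it was at 8.92 against 10.54 to 11.63 in the other 4.

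The ER-associated degradation genes Derl3 and Syvn1 leaned lower. Derl3, a derlin that helps draw misfolded proteins out of the ER, had 11.89, 11.73, 11.86, 11.91 and 11.97 in NFIL3 KO livers with tunicamycin, all under the 12.07, 12.16, 11.98, 12.02 and 12.04 of WT livers with tunicamycin. With vehicle it had 7.66, 7.22, 7.49, 6.31 and 7.05 in NFIL3 KO livers and 5.70, 6.29, 7.16, 6.14 and 6.67 in WT livers. Its interaction of -0.93 ± 0.31 (adjusted p = 0.992) came mostly from the vehicle difference of 0.75, against -0.18 with tunicamycin. Syvn1, the ubiquitin ligase HRD1, had an interaction of -0.42 ± 0.19, and Herpud1, an adaptor of that ligase, -0.12 ± 0.17.

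Over the lists of the stress response, 0 members were called for the interaction, and medians are given beside the median of all genes, -0.002. Of 25 ER chaperone and folding genes, 20 had negative values and the median was -0.14, although 22 rose in NFIL3 KO livers and 23 in WT livers (13.5% and 13.7% of all genes did). Creld2, an ER-resident stress protein, had -0.60 ± 0.20, with a vehicle difference of 0.54, and the thioredoxin-domain gene Txndc11 had -0.46 ± 0.17, with a tunicamycin difference of -0.43. Of 14 unfolded protein response sensors and factors, 10 were negative (median -0.13), and of 21 ER-associated degradation genes, 17 (median -0.09). ER translocation and transport had 21 of 29 negative (median -0.05), led by the signal recognition particle receptor gene Srprb (-0.45 ± 0.16), and N-glycosylation had 22 of 36 (median -0.04). Single arrays moved these medians in both directions. The lowest with an array left out were -0.17 for the sensors and factors and -0.12 for degradation. They were -0.09 for translocation and transport, -0.07 for N-glycosylation and -0.16 for the chaperones. Without NFIL3 KO tunicamycin replicate 3 the median was -0.07 for the sensors and factors, -0.05 for degradation, -0.02 for translocation and transport and -0.007 for N-glycosylation, and without WT vehicle replicate 2 it was -0.08 for the chaperones. Members of a list share their mice and their regulators and are not replicates, and across all genes 11180 of 22180 were negative.

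In single mice, the mean change of the 25 chaperone genes from the vehicle mean of the same genotype was 1.42, 1.36, 1.31, 1.43 and 1.48 in NFIL3 KO livers with tunicamycin, against 1.55, 1.52, 1.51, 1.57 and 1.58 in WT livers with tunicamycin. The mean level of the list was nevertheless 10.71 to 10.87 in NFIL3 KO livers with tunicamycin and 10.84 to 10.91 in WT livers with tunicamycin, and 9.31 to 9.48 in NFIL3 KO livers with vehicle and 9.18 to 9.42 in WT livers with vehicle. The changes share 1 vehicle mean within a genotype and are not independent values, and the levels overlapped between genotypes under both treatments.

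Targets of ATF4 and CHOP were mixed. Their median was -0.05, with 9 of 23 positive and 14 negative, and it moved to 0.07 without NFIL3 KO tunicamycin replicate 3. The lowest median with an array left out was -0.096. Ddit4, an inhibitor of mTORC1 signalling, rose 5.4-fold in NFIL3 KO livers and 3.1-fold in WT livers (interaction 0.80 ± 0.30), opposite to Nupr1. Fgf21, which encodes a fasting and stress hormone of the liver, had -1.31 ± 0.57, with 7.74, 7.39, 7.82, 8.14 and 8.56 in NFIL3 KO livers with tunicamycin and 5.83, 6.12, 5.36, 5.44 and 8.31 in NFIL3 KO livers with vehicle. It had 7.83, 8.66, 9.07, 7.96 and 7.75 in WT livers with tunicamycin and 4.98, 5.08, 5.17, 4.96 and 5.97 in WT livers with vehicle. A single NFIL3 KO liver with vehicle, replicate 5, lay within the range of the treated mice, and without it the interaction was -0.78. Of other stress genes, the pro-apoptotic Bid had 0.40 ± 0.11, the immediate early gene Egr1 -0.84 ± 0.36 and Zfp36, which encodes a protein that destabilises inflammatory mRNAs, -0.76 ± 0.25.

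**Figure D4:**
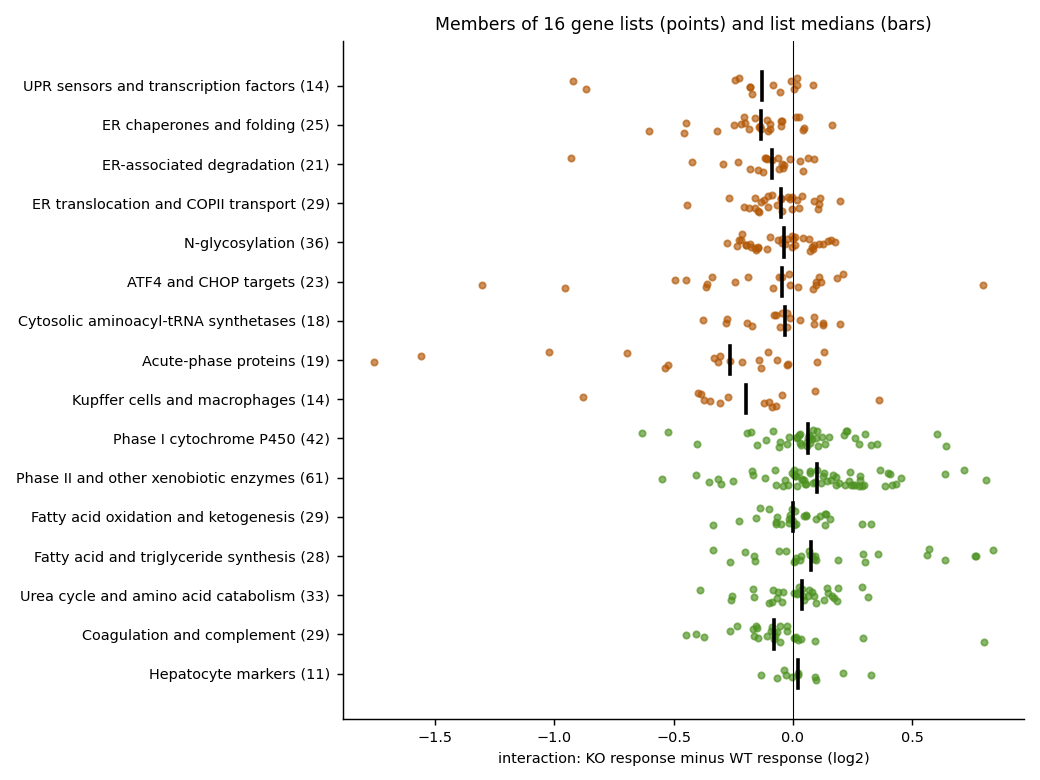
The interaction (log2, horizontal axis) of every measured member of 16 gene lists, with the number of members in brackets; points are genes and black bars list medians, orange for stress, inflammation and Kupffer cell lists and green for hepatocyte lists. Medians ran from -0.26 for acute-phase proteins to 0.10 for phase II enzymes, and single genes such as Ddit3, Fgf21, Saa2, Gsta3 and Mbl1 lay far outside the bulk of their lists.

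For the genes of liver function the question was whether their fall under ERS was smaller without NFIL3. Of 61 phase II and other xenobiotic enzymes, 48 fell in NFIL3 KO livers and 48 in WT livers (13.7% of all genes in each), 46 had a positive interaction and the median was 0.10, with 3 above and 0 below 0 at an unadjusted p below 0.05, where 4.59% of all genes passed. These 3 were Gsta3, Ces1b, a carboxylesterase gene (0.72 ± 0.27), and Gstt3, another glutathione S-transferase gene (0.64 ± 0.29). Gstt3 differed by -0.17 with tunicamycin and by -0.81 with vehicle, so its positive value came from a lower level in NFIL3 KO livers with vehicle. With an array left out, the median of the list ran between 0.07 and 0.16, the latter without WT tunicamycin replicate 2. Of 42 phase I cytochromes P450, 30 were positive (median 0.06) and 0 passed an unadjusted 0.05 in either direction, with a median between 0.015 (without WT vehicle replicate 1) and 0.14 (without WT vehicle replicate 5) when an array was left out, and fatty acid oxidation had 15 of 29 positive (median 0.002).

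The xenobiotic genes that the study singled out had interactions of 0.81 ± 0.19 for Gsta3, 0.33 ± 0.19 for Cyp3a11, 0.30 ± 0.19 for Ugt2b1, 0.18 ± 0.20 for Fmo5 and 0.07 ± 0.16 for Adh1. All were positive, and the intervals of all but Gsta3 included 0, with upper limits between 0.40 and 0.72. Cyp3a11, the main drug-metabolising cytochrome P450 of mouse liver, had 11.11, 11.33, 10.96, 10.96 and 11.02 in NFIL3 KO livers with tunicamycin, above the 10.51, 10.24, 10.66, 10.08 and 10.66 of WT livers with tunicamycin. With vehicle it had 11.36, 11.42, 11.16, 11.33 and 11.27 in NFIL3 KO livers and 11.04, 11.14, 10.65, 11.38 and 10.76 in WT livers, already higher by 0.32 on average. The study chose these genes on NFIL3 KO and WT livers with tunicamycin from the same arrays, so that their direction is not independent evidence.

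Among hepatic transcription factors, 1 interval of 7 lay clear of 0, as did the intervals of 4.59% of all genes. The xenobiotic receptor gene Nr1i3 fell 8.68-fold in NFIL3 KO livers and 10.7-fold in WT livers (interaction 0.30 ± 0.26), and its relative Nr1i2 fell 1.51-fold and 1.9-fold in the same order (0.33 ± 0.14, 0.03 to 0.63). Foxa2 had 0.37 ± 0.19, the bile acid receptor gene Nr1h4 0.23 ± 0.13, Nr0b2 0.17 ± 0.31, Hnf4a 0.09 ± 0.16 and Ppara 0.05 ± 0.22. Onecut1, which encodes HNF6, had 6.51, 6.64, 6.18, 5.84 and 5.60 in NFIL3 KO livers with tunicamycin and 9.38, 7.18, 9.80, 7.99 and 9.54 in NFIL3 KO livers with vehicle. It had 5.37, 5.90, 5.65, 5.56 and 6.16 in WT livers with tunicamycin and 9.90, 9.21, 8.54, 9.59 and 9.57 in WT livers with vehicle. Replicates 2 and 4 of the NFIL3 KO vehicle group were low, the interval was -0.08 to 2.11 (1.01 ± 0.53), and without replicate 2 of that group the interaction was 0.61.

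LIVER-ID genes, the study's set of genes that define the liver, had an interaction median of 0.002 over 491 measured genes, 248 of them positive. Their responses had medians of -0.34 in NFIL3 KO livers and -0.30 in WT livers, and 258 fell in NFIL3 KO livers (52.5%) and 254 in WT livers (51.7%), where 13.7% of all genes fell in each. For the interaction, 13 positive and 5 negative genes had an unadjusted p below 0.05, which is 3.67% of the list against 4.59% of all genes. The 305 with super-enhancers had a median of 0.005, with 12 positive and 5 negative genes at that unadjusted threshold (5.57%). The 186 without super-enhancers had a median of -0.007, with 1 positive and 0 negative (0.538%). The ubiquitous UBQ genes had a median of -0.04 over 517. The Core Enrichment genes had a median of 0.31 and 26 of 26 positive values, but the study drew them from its comparison of NFIL3 KO with WT livers under ERS in these arrays, which fixes much of that direction. Among Core Enrichment genes was Egfr, the epidermal growth factor receptor gene, at 0.78 ± 0.26. It lay between 11.20 and 12.20 in NFIL3 KO livers with tunicamycin, above the 10.52 to 11.12 of WT livers with tunicamycin.

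In other functions, Mbl1, which encodes a mannose-binding lectin of innate immunity, fell 1.89-fold in NFIL3 KO livers and 3.3-fold in WT livers (0.80 ± 0.26), while its list of coagulation and complement genes had 21 of 29 negative values (median -0.08). Among 28 genes of fatty acid and triglyceride synthesis, 21 were positive (median 0.07, between 0.02 without WT vehicle replicate 4 and 0.16 without WT vehicle replicate 3), with the lipid droplet gene Plin5 at 0.76 ± 0.29 and the elongase gene Elovl3 at 0.84 ± 0.43. Cyp4a14, a target of the fatty acid receptor PPARα, had -0.63 ± 1.15, with an interval from -3.01 to 1.75.

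Acute-phase proteins had the lowest median, -0.26, with 17 of 19 negative, and their levels spread widely within groups. Saa2 had 11.31, 9.90, 7.05, 9.65 and 11.27 in NFIL3 KO livers with tunicamycin and 11.30, 8.85, 11.44, 10.67 and 12.80 in NFIL3 KO livers with vehicle. It had 11.90, 9.22, 11.85, 12.95 and 9.96 in WT livers with tunicamycin and 8.86, 8.98, 13.05, 10.02 and 12.08 in WT livers with vehicle. Every group overlapped every other, and its interaction of -1.76 ± 1.27, the lowest of all genes, had an interval from -4.40 to 0.88. Orm2 had -1.56 ± 1.14 and Saa3 -1.02 ± 1.47. Replicate 5 of the NFIL3 KO vehicle group, with Saa3 at 12.45 against 6.76 to 7.65 in the other 4, and WT vehicle replicate 3, with Saa3 at 12.19 against 5.97 to 8.62, were high for these genes. Without the first of these the list's median was -0.11 and the interaction of Saa3 was 0.03, and without the second Saa3 had -2.01. The lowest median of the list with an array left out was -0.37. Saa2 had -1.06 without NFIL3 KO tunicamycin replicate 3, and Orm2 -0.84 without WT tunicamycin replicate 4. Without WT vehicle replicate 3, Saa2 had -2.371 and Orm2 -2.255.

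The tissue label was borne out by the hepatocyte markers, whose mean level lay between 11.43 and 11.87 in all 20 livers and whose interaction median over 11 genes was 0.02. Kupffer cell and macrophage markers had 12 of 14 negative values (median -0.20), led by the scavenger receptor gene Marco (-0.88 ± 0.57), and 0 of them passed an unadjusted 0.05. The median was -0.12 without NFIL3 KO tunicamycin replicate 3 and -0.33 without WT vehicle replicate 3, and Marco had -0.57 without NFIL3 KO tunicamycin replicate 4. Their mean level lay between 6.76 and 7.46 in NFIL3 KO livers with tunicamycin, 7.04 and 7.36 in NFIL3 KO livers with vehicle, 7.07 and 7.46 in WT livers with tunicamycin and 6.63 and 7.66 in WT livers with vehicle. Neutrophil markers, mean level 3.58 to 4.35, had a median of 0.08. In bulk liver, fewer cells of a type and less RNA per cell cannot be told apart, and the part of these cells in the interaction was not tested.

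Across the 7227 genes called in either response, the NFIL3 KO response had a least squares slope of 0.93 on the WT response and a correlation of 0.96, with no test since genes are not independent. A least squares slope is lowered by error in the response that it is taken on, whichever genotype that is. Regressed the other way, with the WT response taken on the NFIL3 KO response, the slope was 1.00. The part of error in either slope was not tested. In single mice, the slope on the response of the other genotype was 0.92, 0.91, 0.79, 1.00 and 1.01 in NFIL3 KO livers with tunicamycin, against 1.01, 1.00, 0.95, 0.98 and 1.05 in WT livers with tunicamycin. Within a genotype these slopes share the same vehicle mean and the same response of the other genotype, and are not independent values. The lowest was replicate 3 of the NFIL3 KO tunicamycin group, which also stood apart from the rest of its group on the main axis of variation (16.7, against 47.1 to 57.1). Without it the slope over genes was 0.96.

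**Figure D5:**
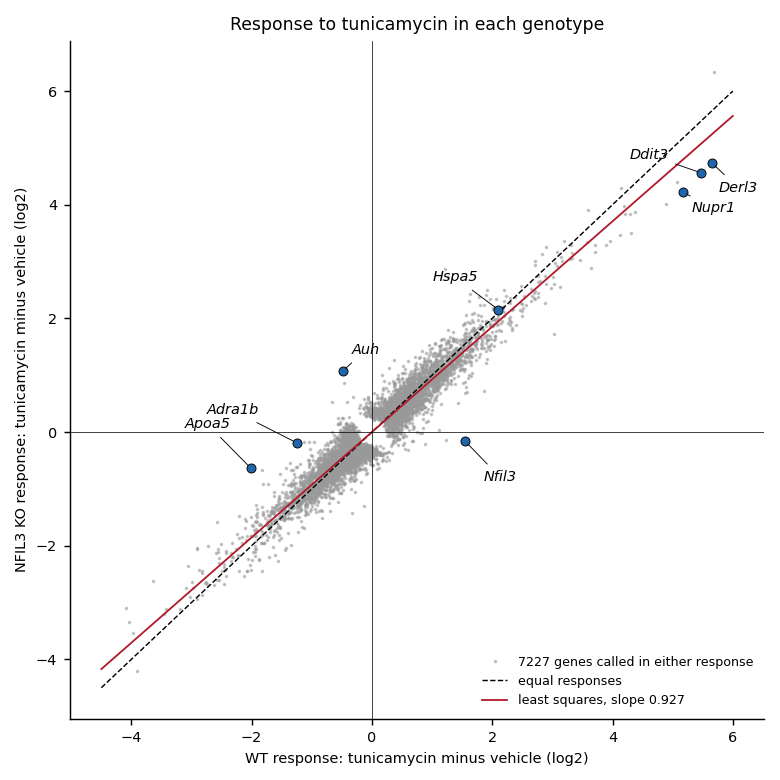
Response to tunicamycin in NFIL3 KO livers (vertical axis) against that in WT livers (horizontal axis), both as log2 differences, for 7227 genes called in either (grey points), with named genes in blue. The red least squares line (slope 0.93) lies close to the dashed line of equal responses, and Auh, Adra1b, Apoa5 and Nfil3 lie off it.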

How the data were processed

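Liver RNA of 20 mice (4 groups of 5, from the sample titles) was hybridised to Affymetrix MoGene 2.0 ST arrays, 1 array per mouse. Per the labels and the study's methods, the authors background-corrected with RMA in Partek Genomics Suite, normalized by quantiles, summarised by median polish and deposited log2 values for 41345 probesets. Those normalization steps make array distributions alike, so that a change shared by most genes would not show. Arrays give no read depth, and the number of mice limits precision.

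The probesets with 1 gene symbol in the platform annotation (23521, of which 23328 were matched to RefSeq, GRCm38.p6, by gene ID) were averaged to 22180 genes, and 1820 with several symbols and 16004 with none were left out. limma 3.58.1 in R 4.3.3 (lmFit on the 4 group means, eBayes) gave the interaction, both responses and both genotype differences, each adjusted by Benjamini and Hochberg over all genes or probesets, with 95% intervals. The fit was tested on simulated data. No batch, litter or day is named in the labels, so none could be tested.

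Named genes were those called, filled up to 12 in each direction by the smallest unadjusted p, without predicted genes, small RNAs, receptors of smell or genes with all group means under the median of all values, plus 26 genes by name and up to 3 members of a list with the largest absolute interaction. Not all of these list members are described, and only those described entered the 67 genes looked at for arrays apart and for changes of sign. The members and lists were chosen with earlier results of these data known, so no p-value was adjusted over a list and no list was tested. Gene lists were written for this work, except for LIVER-ID, its parts with and without super-enhancers, its transcription factors, UBQ and Core Enrichment, which are the study's. Promoter sequences are from RefSeq, and Zfp493, Zbtb16, Gria3 and Hid1 were not matched there. Alternatives were cyclic loess, median centring, leaving out dim features, a mean-variance trend, robust and no moderation, array weights, a replicate block, the brightest probeset of a gene, and leaving out each array.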

Additional observations from a re-analysis of the deposited data

Results flagged for a closer look

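In 18 of 268 groups of 5 arrays (6.72%) over 67 named genes, 1 array lay far from the other 4 by Dixon's criterion, which chance alone gives in about 1 in 20 groups. NFIL3 KO tunicamycin replicate 3 was that array for 3 genes, with Auh at 7.57 (nearest 8.20), Dkc1 at 7.20 (nearest 7.83) and Osbpl3 at 5.52 (nearest 4.54). In each it lay on the side of the NFIL3 KO vehicle group. NFIL3 KO vehicle replicate 5 was that array for 3 others, with Fgf21 at 8.31 (nearest 6.12), Saa3 at 12.45 (nearest 7.65) and Srprb at 7.78 (nearest 7.48).

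Of the other NFIL3 KO arrays, Bid was at 5.55 in tunicamycin replicate 1 (nearest 5.68), Zfp36 at 8.73 in tunicamycin replicate 2 (nearest 8.08), Herpud1 at 12.78 in tunicamycin replicate 4 (nearest 12.57) and Plin5 at 8.17 in vehicle replicate 2 (nearest 7.66). Among WT livers with tunicamycin, Fmo5 was at 10.1 in replicate 1 (nearest 10.5), Gria3 at 6.40 (nearest 6.71) and Gstt3 at 6.0 (nearest 5.46) in replicate 2, Arsa at 7.05 in replicate 4 (nearest 6.67) and Marveld1 at 6.05 in replicate 5 (nearest 6.55). Among WT livers with vehicle, Atf4 was at 7.93 in replicate 3 (nearest 8.09), Ppara at 8.68 in replicate 4 (nearest 8.95) and Fgf21 at 5.97 in replicate 5 (nearest 5.17).

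The response to tunicamycin differed between genotypes in the limma interaction, after adjustment over all genes, for Auh (1.56) and Adra1b (1.06). Auh was higher in 5 of 5 NFIL3 KO livers with tunicamycin than in any WT liver, and so was Adra1b when set against WT livers with tunicamycin.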

How the results depend on the processing

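Of 67 named genes, 59 kept the sign of their interaction under all 9 alternatives and with each of the 20 arrays left out. Apart from genes taken by name, these were picked for a small p or a large interaction in the same arrays. Keeping the sign was thus likely beforehand, and the count says nothing of genes at large. The 2 genes called became 1 without moderation, where Adra1b was not called (adjusted p = 0.0687, limma), and 3 with array weights, which added Dkc1 (0.95, adjusted p = 0.0417), and ran between 1 and 3 with an array left out. Over those alternatives and arrays, Auh stayed called. Its adjusted p (limma) ran between 2.45e-05 and 0.0261 over the alternatives and between 1.3e-05 and 0.00644 over arrays left out. The 1 probeset called became 2 with cyclic loess, without dim probesets, with a mean-variance trend and with array weights, and ran between 1 and 3 with an array left out. NFIL3 KO against WT livers with tunicamycin had 54 genes called, 29 without moderation and between 26 and 67 with an array left out. With vehicle, 5 genes were called, 8 without dim genes, 1 without moderation, 9 with array weights and between 2 and 7 with an array left out. The responses had between 5500 and 6413 genes called in NFIL3 KO livers and between 5635 and 6315 in WT livers with an array left out. The slope over genes ran between 0.91 and 0.96. The sign turned for Tef with the brightest probeset (-0.073) and for Ppara with array weights (-0.055). With an array left out, values spanned 0 for Hspa5 (-0.019 to 0.122), Herpud1 (-0.177 to 0.008), Xbp1 (-0.052 to 0.106), Ppara (-0.108 to 0.208), Adh1 (-0.001 to 0.159), Cyp4a14 (-1.262 to 0.099) and Saa3 (-2.01 to 0.032). The cause was not tested.

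The replicate numbers of the titles gave no sign of pairing the mice. The deviations of same-numbered arrays of different groups correlated between -0.137 and 0.104 (30 pairs), against -0.253 to 0.246 for other numbers (120 pairs). Of 20 arrays, 2 correlated best with their own number. These correlations cannot tell whether the numbers mark litters or days with small effects on expression. With the replicate number as a block, 1 gene and 0 probesets were called for the interaction, and Adra1b had an adjusted p of 0.0553.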
